A study of Mus musculus with 24 samples.

Results

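Transcript levels of the glucose carrier gene Slc2a1 and of 9 enzyme genes of glycolysis (Hk2, Gpi1, Pfkp, Aldoa, Aldoc, Pgk1, Eno1, Pkm and Ldha) were followed through the mouse pancreatic ductal adenocarcinoma line HY19636. They were found by symbol in a table of 54532 genes, in which the 10 symbols stood on 11 rows because Aldoa was listed at 2 neighbouring loci. All 11 loci reached the level required for testing and are among the 12061 tested genes. Glycolysis carries glucose to pyruvate in the cytosol and yields ATP and NADH, and lactate dehydrogenase returns NADH to NAD+ by reducing pyruvate to lactate. Many of its genes are known targets of the hypoxia-inducible factors (HIF), and tumour cells commonly keep the pathway highly active. The pathway also supplies 3-phosphoglycerate, from which Phgdh, phosphoglycerate dehydrogenase, starts the synthesis of serine.

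Each library came from HY19636 cells that were labelled either wild type (WT) or Phgdh KO (knockout), and the series title concerns serine that hepatocytes provide to pancreatic cancer in the liver. The medium of both genotypes held serine and glycine (called replete below) or lacked them (called free below), and cells were kept either alone (monoculture) or with hepatocytes (coculture). This gave 8 groups of 3 libraries: WT replete monoculture, WT free monoculture, WT replete coculture, WT free coculture, and the same 4 for KO. The labels do not say whether the KO line was 1 clone, how Phgdh was edited, how long the cultures lasted, where the hepatocytes came from or how they were separated from the cancer cells. Nor do they say that replicates came from separate cultures, so the spread behind the p-values is that among these libraries and could be a technical one.

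The libraries held 15740081 to 23479425 reads in genes. Phgdh itself, the targeted gene, was at 922 ± 16.6 FPKM (mean ± SD, n = 3, as for every mean below) in WT and 483 ± 96.6 in KO replete monocultures, and at 800.4 ± 15.5 and 695 ± 68.6 in free ones. In coculture it was at 1300.0 ± 55.2 and 874 ± 9.34 in replete medium and at 1311 ± 83.0 and 716 ± 106 in free medium, so its transcript was present in every library labelled KO. It was called lower there than in WT in 3 of 4 conditions, and not in free monoculture (log2 difference −0.21 ± 0.12 SE). Whether these reads lie outside the edited part cannot be told. The ductal keratins Krt8, Krt18 and Krt19 were read in all 24 libraries, whereas Epcam stayed at or under 1.30 FPKM. Of 12 hepatocyte markers 0 reached the level for testing. Their summed FPKM were 0 to 1.04 in the 12 monocultures and 0.153 to 1.04 in the 12 cocultures, from at most 13 and 11 reads, and 6 of them (Fga, Fgb, Cyp2e1, Tat, Apoc3 and Serpina1a) had 0 reads in every library. Apoa2 alone reached 12 reads in a monoculture and 10 in a coculture. Ttr had at most 0 and 4 reads in the same order and Alb 1 and 5. Apoa1 (3 and 1) and Hamp (2 and 0) went the other way, and Cps1 had at most 2 in both. Of the liver forms of this pathway, Slc2a2 had at most 2 reads per library, while Pklr reached 240 reads in monoculture and 223 in coculture. Markers of macrophages, endothelium and stellate cells stayed at or under 9.67 FPKM, the value of Cd68, and in bulk libraries fewer cells of a type and less RNA per cell cannot be told apart. Replicate 1 of the KO replete monocultures and replicate 2 of the KO free cocultures had the lowest mean correlation with the other replicates of their groups. By the chi-square between libraries replicate 1 of the KO free cocultures was about as far (41.1 and 15.5 per degree of freedom from the other replicates, beside 41.1 and 13.8 for replicate 2). Results that change without both libraries of lowest correlation are given both ways.

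In GRCm38, Slc2a1 spans chromosome 4 from 119108711 to 119137983, Eno1 chromosome 4 from 150236721 to 150248879, Hk2 chromosome 6 from 82725025 to 82774454, and Gpi1 chromosome 7 from 34201330 to 34230336. Ldha (46841475 to 46855627) and Aldoa (126795234 to 126800751) are also on chromosome 7, where the second Aldoa locus (ENSMUSG00000114515, 126800790 to 126809108) follows the first. Pkm spans chromosome 9 from 59656368 to 59679375, Aldoc chromosome 11 from 78322968 to 78327781, and Pfkp chromosome 13 from 6579768 to 6648777. Pgk1 is X-linked, from 106187100 to 106203699. Pfkp shares 748 bases with Pitrm1 on the opposite strand, and whether the counting used strand is not stated in the labels or notes. Pitrm1 was at group means of 26.6 to 47.4 FPKM and was highest in the KO free monocultures, where Pfkp was at 2.20 to 2.33. Copies of at least 95% identity over at least 300 bases, Eno1b above all, held 2.36 to 3.91% of the reads of Eno1 and its copies together. The same share was at most 1.01% for Pkm and under 1% for Pgk1, Gpi1 and Ldha. These shares count only reads that were assigned to a copy. Reads dropped or divided because they match several places cannot be seen, so how much of those values is uncertain cannot be told.

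HIF binds a short DNA core, ACGTG or GCGTG. The promoters of 3 members that hold ACGTG more than once are shown with 1 that has only the GCGTG form. Each run is the 250 bases before a RefSeq start (GRCm38.p6), 5′ to 3′ on the gene's strand, and capitals mark ACGTG or its reverse complement CACGT. Hk2 is read from chr6:82774455-82774704 (minus strand), Pgk1 from chrX:106186850-106187099 (plus), Eno1 from chr4:150236458-150236707 (plus) and Ldha from chr7:46845554-46845803 (plus), and none of the 4 windows overlaps an annotated exon (0 bases).
Ldha: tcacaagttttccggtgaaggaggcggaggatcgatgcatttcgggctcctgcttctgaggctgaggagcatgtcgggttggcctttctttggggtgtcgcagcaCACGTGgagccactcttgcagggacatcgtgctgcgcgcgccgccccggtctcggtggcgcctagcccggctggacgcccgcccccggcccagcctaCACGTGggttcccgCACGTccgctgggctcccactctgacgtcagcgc
Pgk1: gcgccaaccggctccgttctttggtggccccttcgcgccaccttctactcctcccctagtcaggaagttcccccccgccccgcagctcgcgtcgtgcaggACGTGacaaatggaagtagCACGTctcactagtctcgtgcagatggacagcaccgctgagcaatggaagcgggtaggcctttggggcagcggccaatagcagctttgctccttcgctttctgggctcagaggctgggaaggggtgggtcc
Hk2: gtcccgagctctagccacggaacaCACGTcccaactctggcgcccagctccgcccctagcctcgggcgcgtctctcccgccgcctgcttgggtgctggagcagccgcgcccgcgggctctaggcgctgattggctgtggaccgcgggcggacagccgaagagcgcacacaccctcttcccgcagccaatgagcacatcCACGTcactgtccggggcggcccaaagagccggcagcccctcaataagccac
Eno1: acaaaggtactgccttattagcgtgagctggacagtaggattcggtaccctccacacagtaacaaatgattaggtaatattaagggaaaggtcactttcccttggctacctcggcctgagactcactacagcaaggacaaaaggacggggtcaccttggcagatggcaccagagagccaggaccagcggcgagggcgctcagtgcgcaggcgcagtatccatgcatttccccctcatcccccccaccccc
The Ldha window, which lies inside the deposited gene span upstream of an inner start, holds 5 matches over both strands. Of these, 4 come from 2 copies of the palindrome CACGTG, the E-box, which reads as a match on each strand. The Pgk1 and Hk2 windows hold 2 matches each and the Eno1 window 0, while GCGTG or its reverse complement CACGC stands once in the Eno1 window and in none of the other 3. Over all 10 members, 6 had a match in at least 1 of their 17 promoters (Slc2a1, Hk2, Aldoa, Pgk1, Pkm and Ldha), in contrast to 18.5% of 27025 genes. Per promoter the share was 7 of 17, beside 16.6% of 32851. The GCGTG form was in 8 of the 17, beside 28.2% of all promoters. Some windows overlap, so that 2 of the Aldoa windows hold the same ACGTG match and 2 of the Eno1 windows the same GCGTG-form matches. The members also have more promoters per gene than all genes together, which was not adjusted for. A match describes the letters in this window and is not a measured binding site.

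The transcripts of these genes made up 0.708 ± 0.0129% of all gene reads in WT replete monocultures and 0.727 ± 0.0132% in WT free ones. With hepatocytes they made up 1.98 ± 0.0166% and 1.98 ± 0.0725%. The KO cells were at 0.744 ± 0.0960% in replete monoculture, at 0.431 ± 0.0201% in free monoculture, and at 1.90 ± 0.00717% and 1.55 ± 0.131% in replete and free coculture. Each coculture library (lowest 1.41%) thus gave these genes a larger share than each monoculture library (highest 0.809%), and the KO free monocultures were the lowest group.

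**Figure D1:**
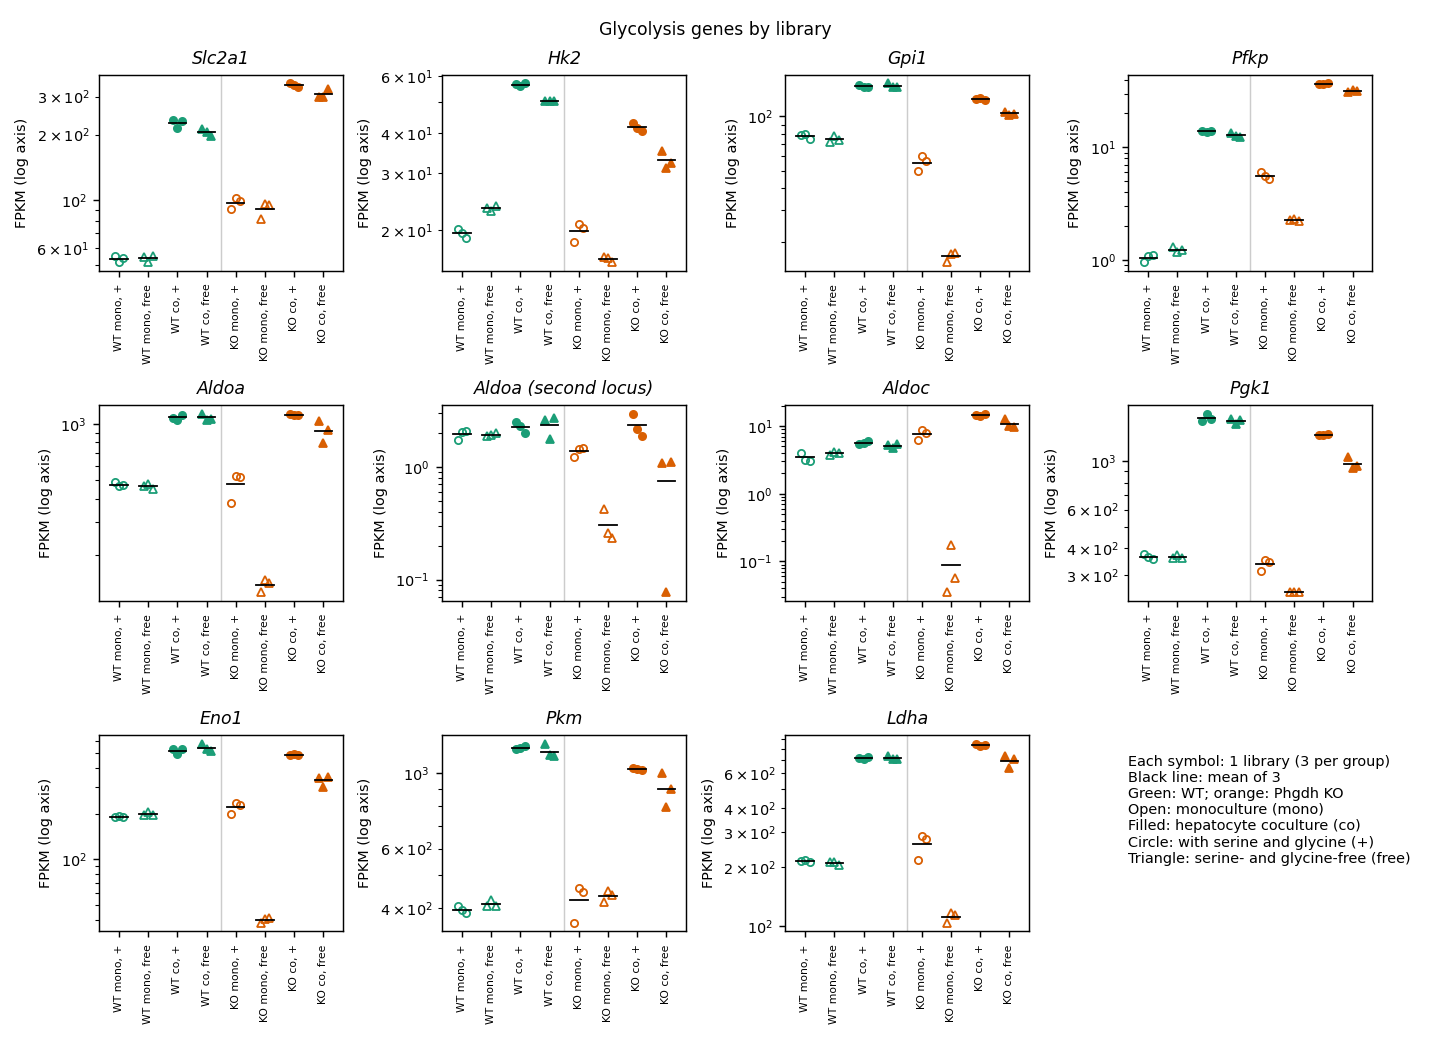
FPKM (log axis, a separate range per gene) of each locus in the 24 libraries, with a black line at the mean of 3. The cocultures (filled symbols) lie above the monocultures (open symbols) of the same genotype and medium for the 10 named genes, and the KO free monocultures (open orange triangles) fall away from the rest for Aldoc, Eno1, Gpi1, Aldoa and Ldha.

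Slc2a1 encodes GLUT1, the carrier through which most cell types take up glucose. In WT monocultures it measured 54.9, 51.7 and 53.8 FPKM in replete medium and 54.5, 51.6 and 55.0 in free medium. WT cocultures gave 233, 215 and 231 FPKM replete, and 211, 206 and 197 free. The KO monocultures gave 90.9, 101 and 99.3 FPKM replete and 81.4, 95.9 and 95.2 free, and the KO cocultures 345, 340.1 and 332 replete and 298, 299.9 and 324 free. Every coculture library was above every monoculture library, and within each kind of culture every KO library was above every WT library. Coculture raised it 4.23-fold in WT replete medium (log2 change 2.06 ± 0.061 SE, limma adjusted p = 1.15e-15) and 3.38-fold in KO free medium (1.75 ± 0.061). KO exceeded WT by 0.85 ± 0.061 in replete monoculture and by 0.58 ± 0.061 in free coculture on the same log2(FPKM + 1) scale. Withdrawal of serine and glycine gave −0.10 ± 0.061 in KO monoculture (adjusted p = 0.15), which did not pass the threshold of 0.05. That value was −0.15 without replicate 1 of the KO replete monocultures and −0.29 with quantile normalization, both past the threshold. Slc2a1 supplied at least 99.7% of the summed FPKM of Slc2a1 to Slc2a4 in each library.

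Hexokinase 2, Hk2, traps glucose in the cell as glucose 6-phosphate. Its FPKM were 18.8 to 20.2 in WT replete monocultures, 22.9 to 23.7 in WT free ones, and 56.1 to 57.0 and 50.1 to 50.4 in the corresponding cocultures. For KO the ranges were 18.4 to 20.9 and 15.9 to 16.5 in monoculture and 40.6 to 42.9 and 31.2 to 35.1 in coculture. WT and KO overlapped in replete monoculture, and in the other 3 conditions each KO library was below each WT library. Hk2 rose 2.90-fold with hepatocytes in WT replete medium (1.49 ± 0.048) and 2.02- to 2.15-fold in the other 3 coculture comparisons. It was the only member called on withdrawal in WT monoculture, where it rose (0.25 ± 0.048, adjusted p = 0.0105). Without replicate 3 of the WT replete monocultures this was 0.22, and without replicate 1 or 3 of the free ones it was 0.24 in either case, each short of the threshold. In KO monoculture withdrawal lowered it (−0.27 ± 0.048, adjusted p = 4.8e-05).

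Gpi1, glucose-6-phosphate isomerase, makes fructose 6-phosphate. It was at 72.2 to 79.6 FPKM over the 6 WT monocultures and at 145 to 152 over the 6 WT cocultures. KO replete monocultures gave 49.5, 59.9 and 56.3 FPKM and KO free monocultures 15.5, 17.1 and 17.4, while the KO cocultures were at 123 to 126 replete and 102 to 106 free. The KO libraries were below the WT libraries in all 4 conditions, with no overlap, and the 3 KO free monocultures were the lowest of the 24. Withdrawal lowered Gpi1 3.31-fold in KO monoculture (−1.67 ± 0.058, adjusted p = 4.32e-15), and coculture in free medium raised it 6.23-fold (2.57 ± 0.058).

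Pfkp, the platelet form of phosphofructokinase, catalyses the committed step and showed the widest coculture response in WT cells. WT monocultures had only 0.955, 1.09 and 1.10 FPKM in replete medium, from 229 to 275 reads, and 1.31, 1.17 and 1.21 in free medium. WT cocultures had 13.9, 13.6 and 14.0 FPKM replete and 13.4, 12.7 and 12.4 free. In KO monocultures the values were 6.02, 5.52 and 5.18 replete and 2.28, 2.33 and 2.20 free. KO cocultures were the highest of all, at 36.7, 36.3 and 37.0 replete and 31.0, 32.5 and 31.5 free. None of the 8 groups overlapped its neighbour in level, and the highest group mean was 35.0 times the lowest. Mean FPKM rose with hepatocytes 13.2-fold in WT replete medium, 10.4-fold in WT free medium, 6.58-fold in KO replete medium and 14.0-fold in KO free medium. The fitted changes were 2.86 ± 0.049, 2.63 ± 0.049, 2.52 ± 0.049 and 3.32 ± 0.049, which understate a gene near 1 FPKM. KO exceeded WT 5.32-fold in replete monoculture (1.68 ± 0.049, adjusted p = 1.61e-15) and 1.84-fold in free monoculture (0.55 ± 0.049, or 0.83 with a pseudocount of 0.1). In coculture KO was 2.64-fold higher replete (1.34 ± 0.049) and 2.47-fold higher free (1.24 ± 0.049).

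Aldolase splits fructose 1,6-bisphosphate, and Aldoa is its main form in most tissues. Aldoa was at 451 to 488 FPKM in the 6 WT monocultures and 1059 to 1137 in the 6 WT cocultures. The KO libraries gave 381, 529.6 and 522 in replete monoculture, 126, 146 and 142 in free monoculture, 1139, 1115 and 1125 in replete coculture and 1039, 797 and 935 in free coculture. The free monocultures were 3.46-fold below the replete ones (−1.77 ± 0.10, adjusted p = 7.01e-12), whereas the KO replete monocultures overlapped the WT ones. Between the KO cocultures the withdrawal change was −0.29 ± 0.10 (adjusted p = 0.0338). It fell short of the threshold when any of 5 of the 6 libraries was left out, all except replicate 1 of the free ones, with values of −0.19 without free replicate 2, −0.31 without free replicate 3 and −0.29, −0.30 and −0.30 without replete replicates 1, 2 and 3.

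Aldoc, the brain form of aldolase, was scarce throughout but had the steepest fall. It measured 6.21, 8.69 and 7.80 FPKM in KO replete monocultures and 0.0349, 0.175 and 0.0576 in KO free ones, the latter from 2, 11 and 3 reads. KO cocultures were at 14.8, 14.2 and 15.3 replete and 12.9, 10.2 and 9.57 free, and the WT libraries ranged only from 3.10 to 4.16 in monoculture and from 4.70 to 6.09 in coculture. The KO free monocultures were thus the lowest group and the other 3 KO groups the highest. Withdrawal in KO monoculture lowered mean FPKM 84.8-fold, a ratio that rests on those few reads. The fitted change was −2.97 ± 0.11 (adjusted p = 9.01e-15) with a pseudocount of 1 and −5.40 with 0.1. Against the same free monocultures the KO free cocultures were higher by 3.44 ± 0.11, or 5.92 with a pseudocount of 0.1. The second Aldoa locus was also scarce, at 1.75 to 2.74 FPKM in the WT libraries, 0.235 to 0.427 in KO free monocultures and 1.08, 0.0769 and 1.12 in KO free cocultures. Its only coculture call, in KO replete medium (0.48 ± 0.19, adjusted p = 0.0475), was lost when any 1 of 5 of the 6 libraries was left out, all except replicate 3 of the cocultures (0.35 without coculture replicate 1 to 0.51 without coculture replicate 2, with 0.43, 0.50 and 0.51 without monoculture replicates 1, 2 and 3). In KO free medium the coculture change of that locus was 0.37 ± 0.19, and it was 0.69, past the threshold, without replicate 2 of the KO free cocultures.

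Pgk1, phosphoglycerate kinase, makes ATP and releases the 3-phosphoglycerate that Phgdh uses. It was the most abundant member per length in coculture, at 1544, 1662 and 1566 FPKM in WT replete and 1574, 1483 and 1558 in WT free cocultures. WT monocultures had 373, 362 and 356 replete and 358, 370.2 and 358 free. KO cells had 312, 353 and 345 in replete monoculture, 249.7, 249.2 and 249.3 in free monoculture, 1331, 1327 and 1332 in replete coculture and 1049.5, 929 and 955 in free coculture. All 12 cocultures exceeded all 12 monocultures, and the rise was 3.92- to 4.37-fold in the 4 comparisons (1.96 ± 0.052 to 2.12 ± 0.052). Withdrawal lowered it in KO cells by nearly the same amount in monoculture (−0.43 ± 0.052, adjusted p = 3.88e-07) and in coculture (−0.45 ± 0.052, adjusted p = 3.75e-06).

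Eno1, enolase, forms phosphoenolpyruvate. WT monocultures were at 191, 192 and 191 FPKM replete and 196, 204 and 196 free, and WT cocultures at 529, 489 and 526 replete and 573, 527 and 513 free. KO replete monocultures gave 198, 233 and 229 FPKM and KO free ones 38.6, 41.0 and 41.6. With hepatocytes the KO values were 486, 489 and 487 replete and 344, 300.3 and 349 free. The KO free monocultures stood apart, 5.45-fold below the replete ones (−2.41 ± 0.064, adjusted p = 8.16e-17) and 8.20-fold below the KO free cocultures (3.0 ± 0.064). In coculture withdrawal still lowered Eno1 in KO cells (−0.56 ± 0.064, adjusted p = 3.21e-06), while the change in WT coculture was 0.062 ± 0.064 (adjusted p = 0.849). In replete monoculture KO exceeded WT by 0.20 ± 0.064 (adjusted p = 0.0176), which was 0.15 and 0.17, short of the threshold, without replicate 2 or 3 of the KO libraries.

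Pkm encodes pyruvate kinase M, whose M2 splice form is common in tumours and which cannot be told from M1 in gene totals. The WT monocultures gave 407, 396 and 388 FPKM replete and 406, 424 and 406 free. KO monocultures gave 363, 461 and 447 replete and 417, 450.2 and 438 free, the groups overlapping each other and WT. WT cocultures were at 1176, 1185 and 1200.3 replete and 1219.5, 1129 and 1120.1 free, and KO cocultures at 1035, 1029 and 1021 replete and 999.9, 797 and 897 free, again well above all monocultures. No fall on withdrawal was detected in KO monoculture (0.045 ± 0.077, adjusted p = 0.617), and quantile normalization turned it into a rise past the threshold (0.41). In KO coculture the change was −0.20 ± 0.077 (adjusted p = 0.0564), and it was −0.28, past the threshold, without replicate 1 of the free ones. In replete monoculture KO exceeded WT by 0.086 ± 0.077, short of the threshold, and by 0.19, past it, without replicate 1 of the KO replete monocultures.

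Ldha encodes the A subunit of lactate dehydrogenase. WT monocultures were at 216, 217 and 211 FPKM replete and 212, 211 and 204 free, and WT cocultures at 713, 710.5 and 728 replete and 737, 705 and 704 free. The KO series ran 217, 287 and 279 in replete monoculture, 104, 117 and 113 in free monoculture, 845, 823 and 832 in replete coculture and 731, 639 and 706 in free coculture. The 12 cocultures were above the 12 monocultures, and the KO free monocultures were the lowest 3 libraries. Withdrawal lowered Ldha 2.34-fold in KO monoculture (−1.21 ± 0.076, adjusted p = 2.86e-11). In KO coculture its change was −0.27 ± 0.076 (adjusted p = 0.0123), which became −0.21 and lost its call without replicate 2 of the free cocultures, and −0.14 with quantile normalization. Ldhb, the gene of the other subunit, had 0 reads in all 24 libraries, which allows at most 0.0786 to 0.120 FPKM per library at a floor of 3 reads (counting error only).

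Coculture with hepatocytes moved these genes in 1 direction. In WT replete medium 10 of 11 loci were higher than in monoculture and 0 lower, beside 31.2% of all tested genes called (16.3% higher). In WT free medium it was again 10 and 0 (28.1% of all genes called, 14.9% higher). KO replete medium gave 11 and 0 (40%, 20.1% higher, 19.9% lower) and KO free medium 10 and 0 (71.3%, 35% higher). The median change over the 11 loci was 1.49, 1.43, 1.25 and 2.57 in that order, beside −0.016, −0.0088, −0.0053 and −0.0064 over all tested genes. The locus not called in 3 of these was the second Aldoa row. Beside this, the summed reads of the 12 hepatocyte markers were at most 11 in coculture and 13 in monoculture. Apoa2 alone reached 10 and 12 of these reads. Ttr was read only in coculture (at most 4) and Hamp only in monoculture (at most 2). Limma voom on the recovered reads, which scales to library totals, moved the median of all genes from −0.016 to −0.11 in WT replete medium and from −0.0088 to −0.10 in WT free medium. It turned the split of calls over all genes from 1969 higher and 1794 lower to 1574 and 2841 in WT replete medium, from 1800 and 1586 to 1371 and 2627 in WT free medium and from 2429 and 2395 to 2011 and 3298 in KO replete medium. The 10 named genes rose under it as well in all 4 comparisons, except that Aldoc in WT free medium (0.30 ± 0.11, adjusted p = 0.0435) lost its call (0.28). That call was also lost without any 1 of 5 of the 6 libraries, all except replicate 2 of the cocultures (0.28 and 0.27 without coculture replicates 1 and 3, and 0.26, 0.33 and 0.31 without monoculture replicates 1, 2 and 3).

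**Figure D2:**
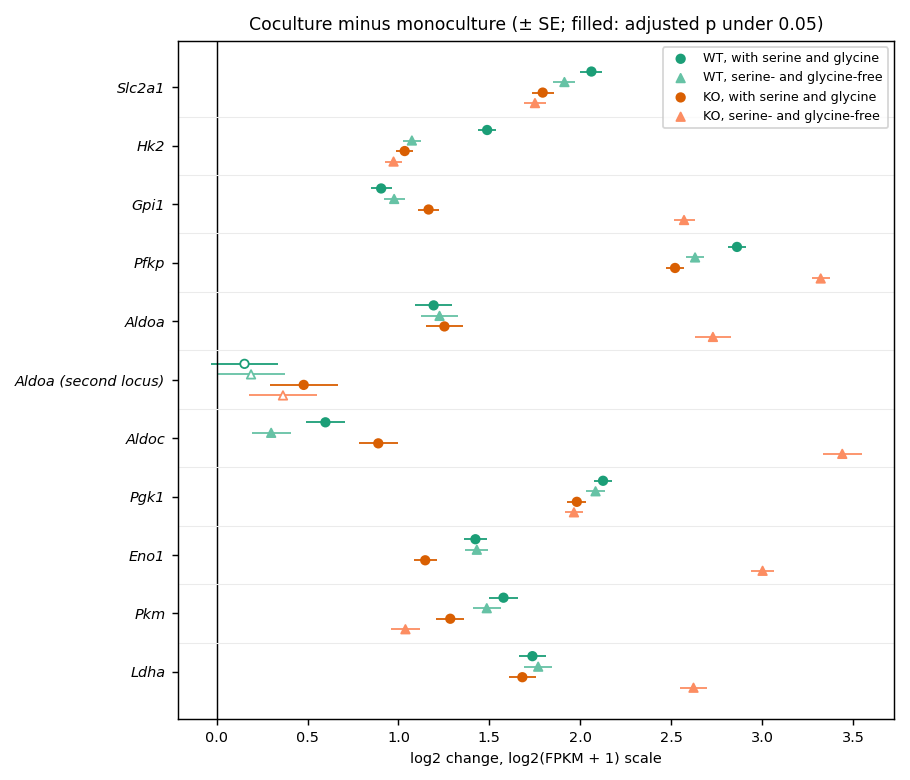
log2 change (coculture minus monoculture, log2(FPKM + 1) scale, ± SE) of each locus in the 4 combinations of genotype and medium, with filled symbols where the adjusted p was under 0.05. The KO free comparison (light orange triangles) lies to the right of the others for Gpi1, Aldoa, Aldoc, Eno1, Ldha and Pfkp, but not for Slc2a1, Hk2, Pgk1 or Pkm.

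On withdrawal of serine and glycine few of all tested genes were called in WT cells, and few of these loci. In WT monoculture 1 of 11 loci was called, Hk2, beside 1.63% of all tested genes (1.37% higher). In WT coculture limma called 0 of 11, beside 0.738% (0.439% higher), with 3 loci at an unadjusted p under 0.05, and voom on the recovered reads also called 0. Among KO monocultures 9 of 11 loci fell and 0 rose, beside 70.8% of all genes called (34.5% lower, 36.2% higher). The share called was close to that of all genes, but the calls went 1 way only. The median over the loci was −1.01, and 0.0042 over all genes. The falls were largest for Aldoc (−2.97), Eno1 (−2.41), Aldoa (−1.77) and Gpi1 (−1.67), while Slc2a1 and Pkm, the carrier and pyruvate kinase, did not pass. Without the 2 libraries of lowest correlation 10 loci fell, with Slc2a1 added, as it was with quantile normalization (−0.29), under which Pkm was called higher (0.41). KO cocultures showed 9 falls and 0 rises as well (29.9% of all genes called, 14.4% lower), with a median of −0.29 and −0.00066 over all genes. Again Slc2a1 (−0.14 ± 0.061) and Pkm did not pass after adjustment, though limma put all 11 loci at an unadjusted p under 0.05. Leaving out 1 library gave 7 to 10 calls there.

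The difference between those responses was tested directly. In monoculture the withdrawal change of KO cells was below that of WT cells at 9 of 11 loci and above it at 0, beside 61.2% of all genes called (29.8% lower, 31.4% higher). Eno1 differed by −2.47 ± 0.09, Aldoa by −1.74 ± 0.14 and Gpi1 by −1.61 ± 0.081, and Slc2a1 (−0.11) and Pkm (−0.0078) were not called. With quantile normalization both were, Slc2a1 at −0.34 and Pkm at 0.27. In coculture the same difference was called lower at 4 loci (14.4% of all genes called, 6.38% lower, 8.06% higher), namely Eno1 (−0.62 ± 0.09), Pgk1 (−0.40 ± 0.073), the second Aldoa row (−1.01 ± 0.26) and Gpi1 (−0.27 ± 0.081). The call of the second Aldoa row was lost with a pseudocount of 0.1 (−1.96, adjusted p = 0.0535) and with only the contrast's groups in the fit (adjusted p = 0.0629). The Gpi1 call (adjusted p = 0.0306) was lost in 8 of 12 fits that left out 1 library, namely any KO replete coculture, replicate 2 or 3 of the KO free or of the WT replete ones, or replicate 1 of the WT free ones (−0.25 to −0.28). Without replicate 1 of the KO free cocultures 6 loci were called lower, with Hk2 (−0.21) and Aldoc (−0.40) added. Within KO cells coculture altered the withdrawal change at 6 of 11 loci, all upward (57.7% of all genes called, 27.9% higher). These were Aldoc (2.55 ± 0.15, or 4.95 with a pseudocount of 0.1), Eno1 (1.85 ± 0.09), Aldoa (1.48 ± 0.14), Gpi1 (1.40 ± 0.081), Ldha (0.94 ± 0.11) and Pfkp (0.80 ± 0.069). For Hk2 (−0.061 ± 0.068) and Pgk1 (−0.016 ± 0.073), which fell in both kinds of culture, no such difference was detected. Pkm (−0.25 ± 0.11) passed, downward, when replicate 1 of the KO free cocultures (−0.33) or replicate 2 or 3 of the KO replete monocultures (−0.31 or −0.29) was left out, and with quantile normalization (−0.53). In WT cells the only locus called was Hk2 (−0.41 ± 0.068, adjusted p = 0.00299), beside 1.67% of all genes (0.423% higher).

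**Figure D3:**
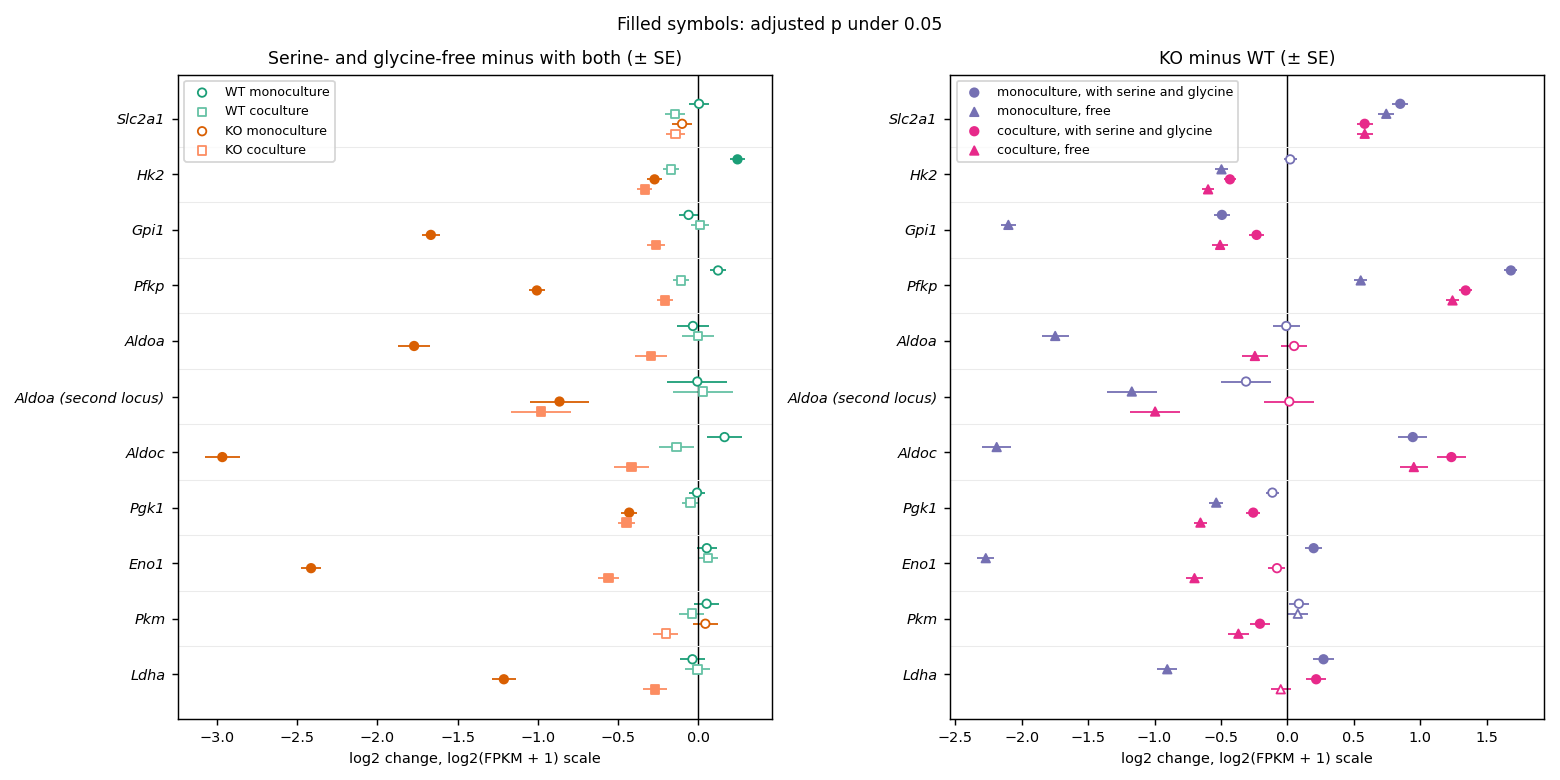
log2 changes (log2(FPKM + 1) scale, ± SE) of each locus on withdrawal of serine and glycine (left, free minus replete, in 4 cultures) and between genotypes (right, KO minus WT, in 4 conditions), with filled symbols where the adjusted p was under 0.05. On the left the KO monocultures (orange circles) reach −2.97 for Aldoc and −2.41 for Eno1, and on the right Slc2a1 and Pfkp are above 0 in all 4 conditions.

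Between genotypes the members were called in both directions, and some, such as Aldoc, changed side with the condition. In replete monoculture 5 of 11 loci were higher and 1 lower, beside 42.7% of all genes called (21.5% higher, 21.1% lower). In free monoculture 2 were higher and 8 lower, beside 73.6% (37.4% and 36.3%). Replete coculture gave 4 and 4, beside 43.9% (21.8% and 22%), and free coculture 3 and 7, beside 53.6% (26.3% and 27.4%). In all, 6, 10, 8 and 10 of the 11 loci were called, of which the first was closest to the share over all genes. Slc2a1 and Pfkp, the carrier and the committed step, were higher in KO cells in all 4 conditions and Gpi1 was lower in all 4. Aldoc was higher in 3 (0.94 ± 0.11 in replete monoculture, 1.23 ± 0.11 and 0.95 ± 0.11 in replete and free coculture) and lower in free monoculture (−2.19 ± 0.11, or −4.49 with a pseudocount of 0.1). Pgk1 was lower in both cocultures (−0.26 ± 0.052 and −0.65 ± 0.052) and in free monoculture (−0.54 ± 0.052). In replete coculture that of Pkm (−0.21 ± 0.077) was lost without any 1 of the 6 libraries (−0.20 to −0.21), and that of Ldha (0.22 ± 0.076) without replicate 1 or 3 of the KO or 1 or 2 of the WT libraries (0.21 to 0.22). In free coculture that of Aldoa (−0.24 ± 0.10) was lost without KO replicate 2 (−0.14), KO replicate 3 or any 1 of the WT libraries (−0.21 to −0.26), and with the replicate block it was also lost (adjusted p = 0.0617). Without replicate 1 of the KO replete monocultures and replicate 2 of the KO free cocultures, 7 loci were higher and 1 lower in replete monoculture, where Aldoa went from −0.0089 to 0.15.

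Whether genotype altered the coculture response was tested in replete medium. The rise was smaller in KO cells for Hk2 (−0.45 ± 0.068, adjusted p = 0.000228) and Pfkp (−0.34 ± 0.069, adjusted p = 0.00338, or −0.91 with a pseudocount of 0.1) and larger for Gpi1 (0.26 ± 0.081, adjusted p = 0.0477), which made 1 locus higher and 2 lower of 11, beside 10.4% of all genes (4.98% higher, 5.39% lower). The Gpi1 call was lost without any 1 of 10 of the 12 libraries, all except replicate 2 of the KO and replicate 3 of the WT monocultures (0.19 to 0.28). Without replicate 1 of the KO replete monocultures 5 loci were called in total, all lower, with Slc2a1 at −0.32, Eno1 at −0.35 and Pkm at −0.40 joining Hk2 and Pfkp. Slc2a1 was also called without replicate 2 of the WT cocultures (−0.30).

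The isozymes that share a step did not move in proportion. Pfkp supplied 2.46 ± 0.290% of the phosphofructokinase FPKM (Pfkp, Pfkl and Pfkm) in WT replete monocultures and 12.5 ± 0.200% in WT replete cocultures. In KO cells its share was 9.57 ± 1.24% in replete and 17.8 ± 1.80% in free monocultures, and 26.2 ± 0.367% and 25.3 ± 1.20% in the cocultures. Over the 8 groups the liver form Pfkl ranged from 8.34 ± 0.927 FPKM in KO free monocultures to 89.6 ± 6.41 in WT free cocultures and the muscle form Pfkm from 2.24 ± 0.196 in the same monocultures to 17.8 ± 1.33 in KO replete ones. With hepatocytes Pfkl rose in all 4 comparisons (1.30 to 3.09), whereas Pfkm fell in 3 (−0.34 in WT replete medium) and rose in KO free medium (2.33). Hk2 held 60.0 ± 0.647% of the summed FPKM of Hk1, Hk2 and Hk3 in WT replete monocultures and stayed between 59.6 and 62.8% in all 12 WT libraries. It held 52.7 ± 2.52% in KO replete and 37.8 ± 1.47% in KO free monocultures, and 42.8 ± 0.198% and 38.2% (range 36.8 to 39.8) in the KO cocultures, so that Hk1 was the larger part in 3 of the 4 KO groups. Hk1, the widely expressed form, rose on withdrawal in KO monoculture (0.56 ± 0.087, adjusted p = 9.17e-06), opposite to Hk2. Aldoc was at most 1.61% of the summed FPKM of Aldoa and Aldoc in any library. Eno1 held 81.2 ± 0.491% of enolase FPKM in KO free monocultures and 91.6 to 94.9% elsewhere.

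**Figure D4:**
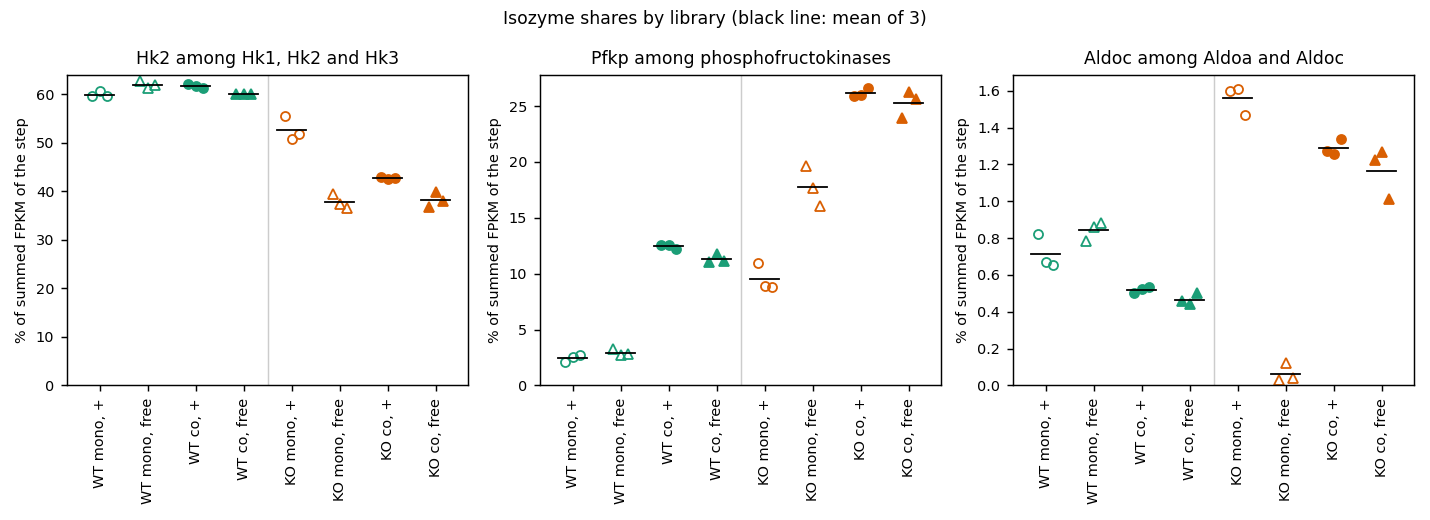
Share of the summed FPKM of a step (linear axis from 0) held by Hk2 among Hk1, Hk2 and Hk3, by Pfkp among Pfkp, Pfkl and Pfkm, and by Aldoc among Aldoa and Aldoc, in each library, with a black line at the mean of 3. Hk2 stays near 60% in the WT groups and falls to 37.8% in KO free monocultures, and Pfkp goes from 2.46% in WT replete monocultures to 26.2% in KO replete cocultures.

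Of 32 other genes of the pathway, its side isozymes, regulators and lactate carriers, 19 reached the level for testing. Coculture raised 9 and lowered 3 of the 19 in WT replete medium, 9 and 4 in WT free medium, 9 and 3 in KO replete medium and 12 and 4 in KO free medium. Over all tested genes 16.3% were called higher and 14.9% lower in WT replete medium, and 14.9% and 13.1% in WT free medium. In KO cells these shares were 20.1% and 19.9% in replete medium and 35% and 36.3% in free medium. Tpi1 and Pgam1, which catalyse steps without a member, rose in all 4. Tpi1, triosephosphate isomerase, went from 164 ± 7.08 to 484 ± 13.5 FPKM with hepatocytes in WT replete medium (1.55 ± 0.078) and from 76.3 ± 3.32 to 498 ± 55.2 in KO free medium (2.69 ± 0.078). Pgam1, phosphoglycerate mutase, changed by 1.52 ± 0.053 and 2.26 ± 0.053 in the same comparisons. The lactate exporter Slc16a3 (MCT4) rose in all 4, from 3.39 ± 0.489 to 21.3 ± 1.40 FPKM in WT replete medium (2.35 ± 0.19), beside 0.13 ± 0.047 for Slc16a1 (MCT1). On withdrawal 5 of the 19 rose and 12 fell in KO monoculture, beside 36.2% higher and 34.5% lower over all tested genes. In KO coculture 2 rose and 8 fell, beside 15.5% and 14.4%. Tpi1 fell by 1.76, Pgam1 by 1.33 and Pfkl by 1.96 in KO monoculture on the log2 scale, while the muscle forms Pgam2 (1.87 ± 0.20, to 6.99 ± 0.657 FPKM) and Eno3 (1.29 ± 0.15, to 5.14 ± 0.115 FPKM) rose. Gapdh could not be followed, since its FPKM ran from 0.633 to 158 over the 24 libraries and differed widely between replicates of some groups, for example 2.59 to 112 in WT replete cocultures. Among 7 gluconeogenesis genes 3 were tested, and Pck2, Pcx and G6pc3 all fell on withdrawal in KO monoculture (−1.82, −0.64 and −0.47) and rose with coculture in KO free medium. Over all tested genes 34.5% were called lower in that withdrawal and 35% higher in that coculture comparison.

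Genes outside glycolysis that are commonly used to report HIF activity also rose with coculture. Of 12 listed 11 were tested, and 10 of these rose with coculture in each of the 4 comparisons and 0 fell, with medians of 2.73, 2.69, 2.43 and 3.44. Over all tested genes 16.3%, 14.9%, 20.1% and 35% were called higher in WT replete, WT free, KO replete and KO free medium. The HIF prolyl hydroxylase Egln3 went from 4.03 ± 0.520 to 104 ± 2.59 FPKM in WT replete medium (4.39 ± 0.072), the mitophagy receptor Bnip3 from 22.2 ± 0.554 to 208 ± 10.3 (3.17 ± 0.069), and Pdk1, which restrains pyruvate entry to mitochondria, from 6.12 ± 0.203 to 22.7 ± 0.418 (1.73 ± 0.076). Hif1a itself was not called in any of the 4 (−0.28 to 0.038). On withdrawal in KO monoculture 8 of the 11 fell and 3 rose, beside 34.5% lower and 36.2% higher over all tested genes. Bnip3 was at 16.7 ± 0.571 FPKM replete and 0.834 ± 0.239 free (−3.28 ± 0.069), while Vegfa (0.28 ± 0.055), Ndrg1 (0.22 ± 0.042) and Hif1a (0.29 ± 0.12) were the 3 that rose.

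The protein-coding genes most like the members, by Pearson correlation of log2(FPKM + 1) with the mean of the members' standardized values over the 24 libraries, were Itpk1 (r = 0.994), Gys1 (0.992), P4ha2 (0.991), Egln3 (0.989) and Cyp2s1 (0.984). Gys1 is muscle glycogen synthase and P4ha2 a collagen prolyl hydroxylase. Taken singly, Pgk1 correlated with Egln1 at 0.993, Aldoa was most like Pfkl (0.991), Pkm most like Kctd11 (0.992), and Eno1 and Gpi1 both most like Pafah1b3 (0.988 and 0.990). Slc2a1 and Pfkp correlated with each other at 0.984 and Hk2 with Pgk1 at 0.981, in contrast to 0.543 for Slc2a1 with Gpi1. These values describe the 24 libraries, which fall into 8 groups and share their scaling.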

How the data were processed

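RNA sequencing libraries from 8 groups of 3 were analysed, 24 in all. The deposited table gave FPKM, fragments scaled to gene length and to a scaling total of each library, for 54532 genes. Per the submitters' processing notes, the authors had aligned the reads to GRCm38 (mm10) with HISAT2. The counting tool, the use of strand and the version of the annotation are not named there. FPKM multiplied by gene length gave whole reads (within 0.01 of a read) for 100% of values, and the scaling total was 0.969 to 1.07 times each library's own total, 15740081 to 23479425 reads. This factor went with the group. It was 1.05 to 1.07 in WT and 1.00 to 1.04 in KO monocultures, and 0.983 to 1.00 in WT and 0.969 to 0.980 in KO cocultures. A larger factor gives a lower FPKM for the same share of reads. Precision is limited by 3 libraries per group and, for genes under about 1 FPKM, by read number.

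The test was limma (3.58.1, R 4.3.3) on log2(FPKM + 1), a moderated linear model with a mean-variance trend over all 24 libraries and 8 group means (16 residual degrees of freedom). A gene entered if 3 or more libraries had 1 FPKM or more, which 12061 did. Benjamini-Hochberg adjustment covered all of them in each of 12 comparisons of 2 groups and 5 interactions, and an adjusted p under 0.05 was called. Log2 changes carry the SE after ± and FPKM the SD (n = 3), and folds are ratios of mean FPKM. The fit was tested on simulated data. All 10 members were named, other pathway genes were counted from lists, and the 5 genes most correlated with the members' mean, and 2 per member, were taken as the most like. The members and lists were chosen with earlier results of these data known. Some genes of the lists are not reported here, and isozyme shares were taken without them, which departs from the plan.

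Alternatives were another pseudocount, 2 other filters, quantile normalization, the contrast's groups alone, a replicate block and leaving out each library. The count models planned were not run, because the deposited values are not counts, and limma voom on the recovered reads took their place. That substitute, leaving out the 2 libraries that correlated least with their groups, and the blocked fit of the KO monocultures alone were chosen after seeing the data. Same-numbered libraries deviated together (correlations of 0.40, 0.28 and 0.11) only between KO replete and KO free monocultures, 1 of 12 comparisons, so the numbers were taken to pair those groups alone. No 2 libraries were identical (0 pairs). Chi-square per degree of freedom between replicates ranged from 2.99 to 65.7, the highest for KO replete monoculture replicate 1. Promoters came from RefSeq (GRCm38.p6), and copies were sought with blastn 2.17.0. All 11 loci matched GENCODE vM21 (GRCm38).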

Additional observations from a re-analysis of the deposited data

Results flagged for a closer look

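The values here are limma differences between log2 changes under the same contrast, each past an adjusted p of 0.05, given with no explanation. In monoculture the withdrawal change of KO cells lay below that of WT cells for Aldoc (−3.13), Eno1 (−2.47), Aldoa (−1.74), Gpi1 (−1.61), Ldha (−1.18), Pfkp (−1.13), the second Aldoa locus (−0.86), Hk2 (−0.52) and Pgk1 (−0.42). The Aldoc value rests on 2, 11 and 3 reads in the KO free monocultures and was −5.60 with a pseudocount of 0.1. The value of the second Aldoa locus was −1.88 with that pseudocount.

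In coculture the same difference was called for the second Aldoa locus (−1.01), Eno1 (−0.62), Pgk1 (−0.40) and Gpi1 (−0.27), where the first was −1.96 and lost its call with a pseudocount of 0.1. Genotype altered the coculture change in replete medium for Hk2 (−0.45), Pfkp (−0.34) and Gpi1 (0.26). Coculture altered the withdrawal change in KO cells for Aldoc (2.55), Eno1 (1.85), Aldoa (1.48), Gpi1 (1.40), Ldha (0.94) and Pfkp (0.80), and in WT cells for Hk2 (−0.41). These interactions share groups, so they are not independent of each other. Whether single libraries stood out within a group was not examined by a rule, since groups of 3 are too small for one.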

How the results depend on the processing

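These counts cover the alternatives that kept all libraries or left out the 2 that correlated least with their groups. In them 1356 values of single loci kept their side of the threshold, while 32 lost and 22 gained a call in the same direction. A further 3 changed sign and were called in at least 1 of the compared fits. Any changes of sign without a call in either fit were not counted apart and lie among the 1356. Those 3 were Pkm in the difference of withdrawal changes between genotypes in monoculture (0.27 with quantile normalization), Slc2a1 in the difference between coculture and monoculture of KO cells on withdrawal (0.28 with quantile normalization) and Aldoa between KO and WT in replete monoculture (0.15 without the 2 libraries). For these the cause was not tested. For the interaction of genotype and coculture 5 loci were called with quantile normalization and 7 without those 2 libraries, rather than 3, and 2 to 5 without any 1 library. Withdrawal in WT monoculture gave 0 or 1 locus without any 1 library, 0 without WT replete replicate 3 or WT free replicate 1 or 3. The count models planned were not run.

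With the replicate number as a block, the count of called loci went from 8 to 7 (KO against WT, replete coculture), 10 to 9 (free coculture), 10 to 9 (coculture, WT free) and 3 to 2 (genotype by coculture), and no other count changed. In the KO monocultures 9 loci fell with and without the block. There the numbers were taken to pair the libraries from correlations in these same data, and the labels do not state such a pairing. Elsewhere the libraries share only a number. In 1 of 12 comparisons (coculture in WT replete medium, not the KO monocultures) each library correlated best with its own number.

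Counts over all genes moved by more than 1.5 times in 28 fits. With only the contrast's groups they went from 5145 to 3165 (KO against WT, replete monoculture), 196 to 302 and 89 to 4 (withdrawal, WT mono- and coculture), 3607 to 1820 (withdrawal, KO coculture), 4824 to 2840 (coculture, KO replete), 1251 to 769 (genotype by coculture) and 201 to 552 (coculture by withdrawal, WT). The 89 were 59 with a pseudocount of 0.1. Leaving out 1 library gave 62 to 140 and 37 to 50 for withdrawal in WT mono- and coculture, 100 to 195 for coculture by withdrawal in WT cells, 2152 to 4619 for withdrawal in KO coculture (the lowest without KO free replicate 2) and 1076 to 3080, from 1742, for genotype by withdrawal in coculture (KO free replicate 2 and 1, with 1104 without WT free replicate 1).

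Depth limits Aldoc in the KO free monocultures (2 to 11 reads) and the second Aldoa locus, whose values move with the pseudocount.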

Other observations

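Some regulators and side branches of the pathway went their own way. Pfkfb3, which makes the activator of phosphofructokinase, rose with hepatocytes in WT cells (0.82 ± 0.093 replete, 0.71 ± 0.093 free) and gave 0.065 ± 0.093 and −0.0016 ± 0.093 in KO cells, neither called. In replete medium this difference between genotypes was itself called (−0.76 ± 0.13, limma adjusted p = 0.00093), and in free medium it was not tested. It was the only call among the 19 tested other genes of the pathway, beside 10.4% of all tested genes (4.98% higher, 5.39% lower). Bpgm, which diverts 1,3-bisphosphoglycerate to 2,3-bisphosphoglycerate, fell with hepatocytes in WT replete (−0.99 ± 0.13), WT free (−0.76 ± 0.13) and KO replete medium (−0.50 ± 0.13) and rose in KO free medium (0.74 ± 0.13). Hk1 was higher in KO than in WT cells in all 4 conditions (0.42 to 0.86), whereas Hk2 was lower in 3 of them.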
